A study of Homo sapiens with 96 samples.

Results

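The expressed ZNF genes of hTERT-RPE1 cells are the subject here. They were selected on level: protein-coding genes named ZNF and a number whose mean over the 12 nuclear nascent RNA libraries was at least 1 RPKM (read density scaled for gene length and library size). That rule kept 107 of the 404 protein-coding ZNF genes listed there, among 15020 protein-coding genes and 20695 genes in all. The nuclear nascent level was therefore used for the choice and is given below as a description only. The 107 genes were then followed by name through 10 expression tables, and each was listed in every table.

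hTERT-RPE1 is an immortalised human retinal pigment epithelium line that carries telomerase, and the labels do not say whether 1 clone was used. The fraction experiment held cells synchronised with 400 uM mimosine for 22 h, an iron chelator that stops cells near the start of S phase, and then collected in 5 windows labelled T0-2, T2-4, T4-6, T6-8 and T8-10, whose unit the labels do not give. They were set against asynchronous cells of the same line, and each of the 6 groups had 2 libraries of nascent and 2 of input RNA from whole cells and from nuclei. In the knockdown experiment the cells received LNA GapmeRs (130 to 150 pmol, by lipofection), which lead RNase H to a chosen transcript. These were directed against the long non-coding RNAs LINC00704, LUCAT1 or MIAT, and control cells received a control LNA. Synchronised knockdown and control cells were taken at points S0, S2, S4 and S6 with 2 libraries per group, labelled as nascent RNA. Asynchronous cells had 3 knockdown libraries per target and 2 control libraries, and both sets of knockdown tables share their control libraries.

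C2H2 zinc finger proteins bind DNA, and in some members RNA or other proteins, through small folds held by a zinc ion. Many human ZNF genes code for KRAB zinc finger proteins, in which the KRAB domain brings in the co-repressor TRIM28 and with it histone deacetylases, the methyltransferase SETDB1 and heterochromatin protein 1. These proteins are known for silencing retrotransposons, and their genes lie in clusters of relatives, above all on chromosome 19. Other members have different work: ZNF281 binds GC-rich promoter elements, ZNF207 helps chromosomes align in mitosis, and ZNF598 marks collided ribosomes with ubiquitin.

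Chromosome 19 held 39 of the 107 expressed genes, or 36.4%. It held 150 of 296 placed ZNF genes under the threshold (50.7%) and 772 of 13947 other placed protein-coding genes (5.54%). Chromosome 1 followed with 10 expressed ZNF genes, chromosome 7 with 9 and chromosome 16 with 8. The expressed genes measured 21211 bp at the median and 2821 to 158509 bp at the extremes, against a median of 28606.5 bp for all protein-coding genes at 1 RPKM or more. In RefSeq, 27 of the 107 genes were overlapped by another gene and 16 by a protein-coding one, so part of their reads may be shared where strand was not used in counting. The deposited length was over 1.5 times the RefSeq span for 7 genes, including ZNF432 (64360 bp against 17461 bp) and ZNF706 (28316 bp against 9171 bp), which lowers their RPKM and, through the constant of 0.25 RPKM added before logarithms were taken, shrinks their log2 differences.

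A short motif was frequent in the start regions of these genes. Promoters of 300 bases, 250 before and 50 after the annotated start, were available from RefSeq GRCh38.p14 for 101 of the 107 genes. CCGGAAG, the core bound by ETS factors such as GABPA, was searched on both strands and found in 44 of the 101 (43.6%), in 22.8% of 4227 other protein-coding genes at 1 RPKM or more, and in 10.7% of all 27305 promoters. TGACGTCA, the cAMP response element bound by CREB and ATF factors, was found in 8.91%, 3.67% and 1.98% of those sets. AAGATGGC, a core bound by YY1, was found in 6.93%, 6.65% and 3.03%. CCAAT was found in 46.5%, 38.3% and 35.7%, GGGCGG in 67.3%, 73.2% and 44.6%, and TATAAA in 4.95%, 5.16% and 12%. Where the ETS core was present, its median offset from the start was -24 bases in ZNF promoters, with quartiles at -59.5 and -14, and -46.5 bases in the other expressed genes. Such matches describe letters in a window and show no binding.

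The promoters of 4 genes are printed, 5′ to 3′ on the gene's strand, because their genes had the lowest p-values in nuclear nascent RNA after release. Capitals mark the ETS core, the cAMP response element or the YY1 core, on either strand. ZNF432 (chr19:52048789-52049088, minus strand) carries a YY1 core and, downstream of it, an ETS core. ZNF274 (chr19:58182811-58183110, plus strand) carries the ETS core at more than 1 place. ZNF202 (chr11:123741611-123741910, minus strand) carries it once. ZNF121 (chr19:9584455-9584754, minus strand) lacks it and carries a cAMP response element next to a YY1 core.
ZNF432: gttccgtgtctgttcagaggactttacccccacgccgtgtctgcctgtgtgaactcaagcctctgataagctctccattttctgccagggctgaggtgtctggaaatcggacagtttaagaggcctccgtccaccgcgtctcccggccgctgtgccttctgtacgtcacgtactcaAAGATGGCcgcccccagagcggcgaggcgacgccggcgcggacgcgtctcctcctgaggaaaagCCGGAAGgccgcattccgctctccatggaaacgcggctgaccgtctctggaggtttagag
ZNF274: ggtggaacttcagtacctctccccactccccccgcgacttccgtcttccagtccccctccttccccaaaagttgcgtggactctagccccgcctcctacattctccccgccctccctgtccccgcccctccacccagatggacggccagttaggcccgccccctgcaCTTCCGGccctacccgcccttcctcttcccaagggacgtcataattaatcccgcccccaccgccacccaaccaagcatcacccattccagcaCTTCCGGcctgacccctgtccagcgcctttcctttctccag
ZNF202: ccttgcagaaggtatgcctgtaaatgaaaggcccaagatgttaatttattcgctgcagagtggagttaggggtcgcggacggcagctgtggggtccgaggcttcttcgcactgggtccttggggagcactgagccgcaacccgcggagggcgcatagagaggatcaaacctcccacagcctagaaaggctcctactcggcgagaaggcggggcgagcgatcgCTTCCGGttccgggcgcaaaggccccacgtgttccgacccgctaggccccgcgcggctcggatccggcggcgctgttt
ZNF121: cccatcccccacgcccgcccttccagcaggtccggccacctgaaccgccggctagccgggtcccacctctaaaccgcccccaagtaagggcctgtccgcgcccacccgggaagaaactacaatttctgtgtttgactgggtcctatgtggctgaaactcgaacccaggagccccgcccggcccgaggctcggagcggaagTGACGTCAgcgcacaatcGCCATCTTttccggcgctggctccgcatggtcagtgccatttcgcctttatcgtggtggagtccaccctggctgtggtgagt
GC content was 61% in the ZNF432 window, 64.3% in that of ZNF274, 63% in that of ZNF202 and 64% in that of ZNF121.

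Most expressed ZNF genes were weakly transcribed, and 1 stood far above the others. Means over the 12 nuclear nascent libraries ran between 1.01 RPKM for ZNF451, a SUMO ligase, and 11.7 RPKM for ZNF281. After ZNF281 came ZNF207 (4.85 RPKM), ZNF24 (4.30), ZNF460 (4.19), ZNF770 (3.27), ZNF75A (3.25), ZNF302 (3.05), ZNF189 (2.98), ZNF768 (2.80) and ZNF638 (2.75), an RNA-binding protein that silences unintegrated retroviral DNA. Just inside the threshold lay ZNF451, ZNF316 and ZNF136, all at 1.01 RPKM. Just outside lay ZNF91 (0.991 RPKM), a KRAB protein that represses SVA retrotransposons, ZNF691 (0.985) and ZNF132 (0.975). ZNF281 ranged between 8.62 and 14.3 RPKM over the 12 libraries, above the highest value of ZNF207 (6.25 RPKM) and of ZNF24 (6.30 RPKM).

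**Figure D1:**
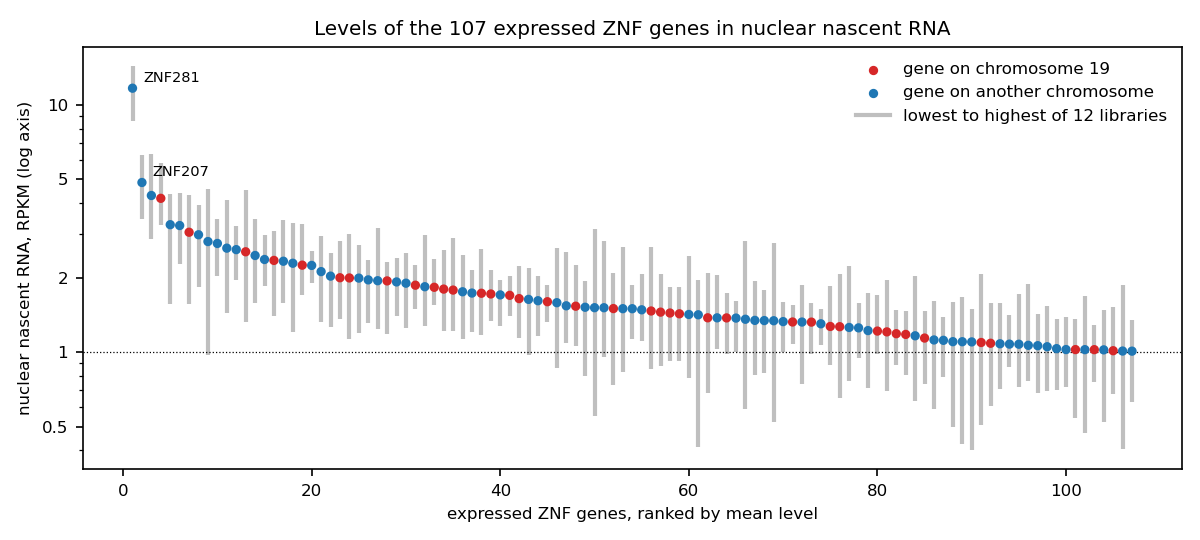
Level of each of the 107 expressed ZNF genes in nuclear nascent RNA, ranked by mean, in RPKM on a log axis. Points are means, lines run between the lowest and the highest of 12 libraries, red marks genes on chromosome 19 and the dotted line marks 1 RPKM. ZNF281 stands at 11.7 RPKM, the next gene at 4.85 RPKM.

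The same genes kept a like median level in the other RNA fractions, and 2 genes took the top rank. The median over the 107 genes was 1.50 RPKM in whole-cell nascent RNA, 1.40 in whole-cell input RNA, 1.50 in nuclear nascent RNA and 1.54 in nuclear input RNA. It was 1.40, 1.61 and 1.40 RPKM in the synchronised LINC00704, LUCAT1 and MIAT tables, and 1.56, 1.96 and 1.53 RPKM in the asynchronous ones. All protein-coding genes had medians of 0.493 to 0.888 RPKM in the 10 tables. No expressed ZNF gene was at 0 in any library, and between 74 and 107 of them averaged 1 RPKM or more, by table. ZNF281 was the highest of the 107 in 7 tables, at 20.9 RPKM in whole-cell nascent RNA, 14.1 in whole-cell input RNA, 11.4 in nuclear input RNA and 11.3 to 12.8 in the synchronised knockdown tables. ZNF768 was the highest in the 3 asynchronous knockdown tables, at 13.4, 15.1 and 12 RPKM. Its deposited length is 2821 bp and it overlaps ZNF747, so its RPKM is the less certain. Tables were normalised separately, so levels set across them are descriptions.

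Depth and identity of the libraries bear on all that follows. Depth, recovered from the steps between low RPKM values, was 6.57 to 28.8 megareads counted per library in the 4 fraction tables, 8.83 to 23.3 megareads in the synchronised and 23.9 to 53.5 megareads in the asynchronous knockdown tables. The thinnest value of an expressed ZNF gene rested on 9 reads, in whole-cell nascent RNA, and library medians ran between 187 and 2274 reads per gene. These figures cover counting error only. In whole-cell input RNA, vimentin (median 292 RPKM), KRT18 (14.6 RPKM), KRT8 (3.55 RPKM) and CDH2 (2.15 RPKM) were present, as was OTX2 (1.43 RPKM), a transcription factor of pigment epithelium. MITF (0.443 RPKM) and SERPINF1 (0.438 RPKM) were lower, TERT had 0.164 RPKM, and PMEL (0.0906 RPKM), BEST1 (0.0678 RPKM), TYR (0.0255 RPKM) and RPE65 (0.0148 RPKM) were near 0. Of 11 markers of other cell types 5 were listed there, each with a median under 0.05 RPKM.

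In nuclear nascent RNA 3 ZNF genes were called after release of synchronised cells into S phase. Relative to asynchronous cells, the mean of the 5 windows was higher for ZNF432 and ZNF274 and lower for ZNF202, at an adjusted p under 0.05 in limma on log2(RPKM + 0.25), adjusted over all genes tested by the Benjamini-Hochberg method. These were 3 of 107 genes, where 4.5% of all 9784 genes tested were called (1.95% higher and 2.54% lower). The genes were chosen by their mean over these same 12 libraries, 10 of them from windows, so nothing is read from that count or from the median difference, which was 0.03 over the 107 genes and -0.01 over all genes on the log2 scale. A choice by the mean of the 2 asynchronous libraries instead took 96 ZNF genes, of which ZNF274 was higher and ZNF202 lower. Their median difference was -0.11, so its sign depended on the libraries used for the choice. Since RNA was measured in bulk, a shift in RNA per cell and a shift in the share of cells that make it cannot be told apart.

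ZNF432, a KRAB gene of chromosome 19, had 2.06 RPKM in both T0-2 libraries, 1.09 and 0.943 at T2-4, 0.843 and 1.14 at T4-6, 1.36 and 0.965 at T6-8 and 0.730 and 0.784 at T8-10, against 0.638 and 0.507 RPKM in asynchronous cells. All 10 window libraries lay above both asynchronous ones, and T0-2 lay highest. The difference was 0.75 with a standard error of 0.15 and an adjusted p of 0.028 in limma. Both asynchronous values lay under the 1 RPKM of the choice, so ZNF432 entered only through the windows, where it was high. Its calls in this fraction are therefore descriptions. ZNF274, a KRAB protein that brings SETDB1 to the 3′ ends of other zinc finger genes, had 1.65, 2.12 and 3.0 RPKM at the lowest, median and highest window library, against 1.20 and 1.13 RPKM in asynchronous cells. All windows again lay above, with a difference of 0.75 ± 0.17 (SE) and an adjusted p of 0.043 in limma. ZNF202, known as a repressor of lipid metabolism genes, had 0.761, 1.06 and 1.51 RPKM in the windows, against 2.04 and 2.23 RPKM in asynchronous cells. Every window library lay below, with a difference of -0.85 ± 0.17 (SE) and an adjusted p of 0.029 in limma.

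ZNF121, reported as a partner of MYC, had 1.32, 2.33 and 2.93 RPKM in the windows, against 3.96 and 4.54 RPKM in asynchronous cells. Its groups did not overlap either, but the difference of -0.90 had an adjusted p of 0.057 in limma. ZNF629 had a difference of -0.57 and an adjusted p of 0.076. The call of each gene depended on single libraries: without either asynchronous library 0 of 107 genes passed, likewise without the first T0-2 or the first T6-8 library, and 1 without the first T2-4 library. In single windows against asynchronous cells, 2 genes passed at T0-2, where 3.37% of all genes were called (1.68% higher and 1.70% lower). They were ZNF432, with a difference of 1.50 ± 0.20 (SE) and an adjusted p of 0.0074, and ZNF83, with 2.15 and 2.61 RPKM at T0-2 against 1.34 and 1.17 RPKM in asynchronous cells.

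**Figure D2:**
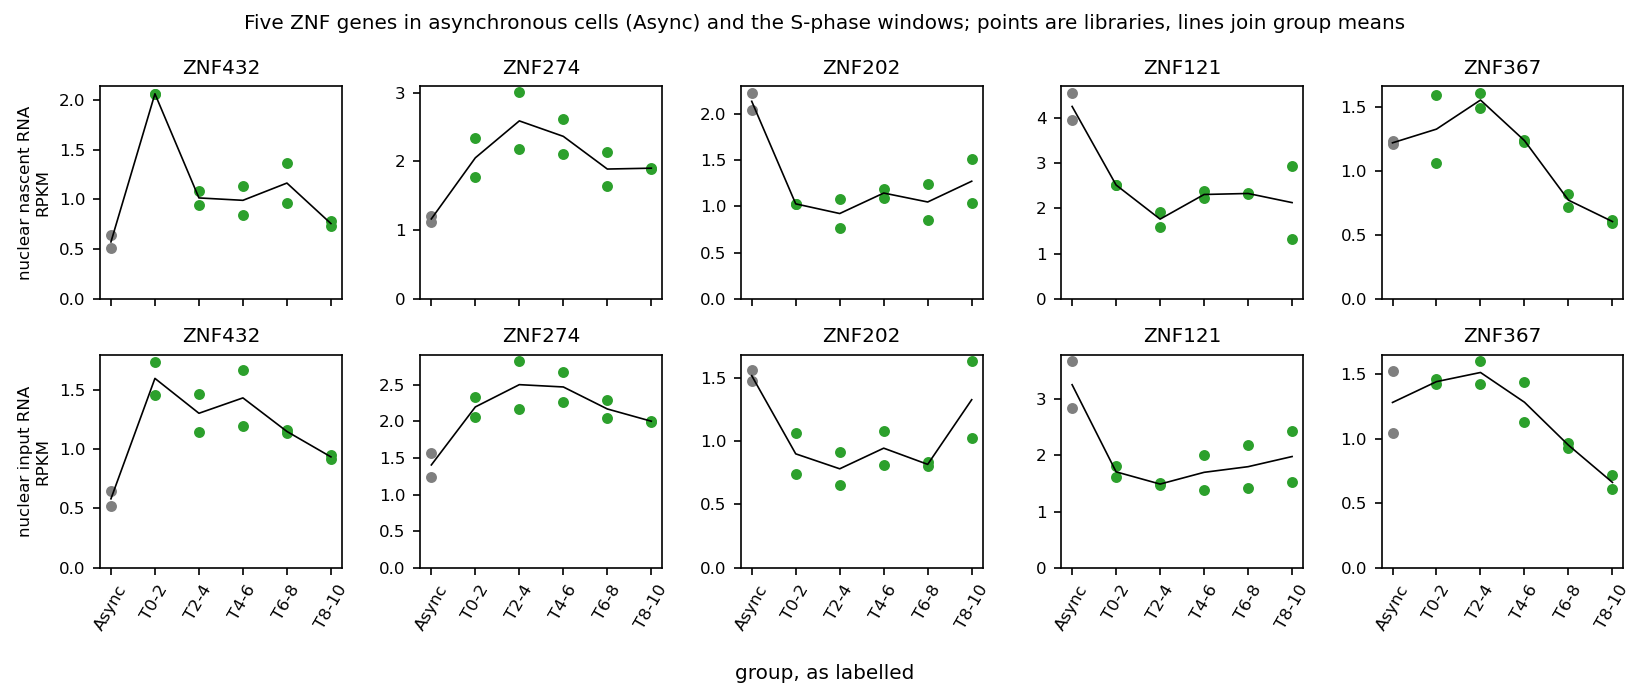
RPKM of 5 ZNF genes in nuclear nascent and nuclear input RNA of asynchronous cells and the 5 windows, each with 2 libraries shown as points and a line through the group means. ZNF432 has 2.06 RPKM in both T0-2 nascent libraries and 0.730 and 0.784 RPKM at T8-10.

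Nuclear input RNA, the total RNA of the same kind of nuclei, had ZNF432, ZNF274 and ZNF121 again among the 5 genes with the lowest p-values. ZNF432 alone passed, where 4.57% of all 9633 genes did (1.96% higher and 2.61% lower), with 0.918, 1.18 and 1.73 RPKM at the lowest, median and highest window library against 0.644 and 0.517 RPKM in asynchronous cells. Its difference was 0.87 ± 0.15 (SE), with an adjusted p of 0.017 in limma. ZNF274 (0.61, adjusted p 0.058), ZNF337 (0.64, 0.065), ZNF121 (-0.83, 0.069) and ZNF266 (0.65, 0.083) followed without passing. ZNF432 also passed in single windows, with a difference of 1.15 at T0-2, where 3.71% of all genes were called (1.55% higher and 2.16% lower), and of 0.90 at T2-4, where 2.70% were (0.83% higher and 1.87% lower). ZNF432 entered the choice only through its nascent windows, and input RNA came from the same kind of nuclei. Its calls in nuclear input RNA are therefore descriptions too. In the windows comparison 0 genes passed without either asynchronous library. In this table same-numbered libraries deviated together, with correlations of 0.627 to 0.861 in all 15 pairs of groups. With the replicate number as a block, 15 ZNF genes were higher and 15 lower (30 of 107), where 34.4% of all genes were called (16.4% higher and 18.1% lower). Each of the 4 named above then passed: the blocked adjusted p was 0.0011 for ZNF274, 0.0009 for ZNF337, 0.0013 for ZNF121 and 0.0009 for ZNF266. In nuclear nascent RNA ZNF266 had 0.919 and 0.945 RPKM in asynchronous cells. It too entered the choice only through the windows, so its pass is a description. All 30 genes called with the block had the same sign in nuclear nascent RNA. Nuclear nascent values were used for the choice, and the share over all called genes was not counted. The match of signs is therefore a description only.

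Whole-cell RNA gave no called ZNF gene after release. In whole-cell nascent RNA 0 of 107 passed, where 0.406% of all 10096 genes did, and 18 ZNF genes had an unadjusted p under 0.05 in limma. ZNF281, the most abundant of the set, had 12.4, 23.4 and 33.5 RPKM at the lowest, median and highest window library, against 7.46 and 11.7 RPKM in asynchronous cells. All its windows lay above, but the difference of 1.21 had an adjusted p of 0.25. ZNF441 (0.74, adjusted p 0.18), ZNF496 (-0.61, 0.19) and ZNF598 (-0.74, 0.20) also separated the groups without passing, whereas the groups of ZNF432 (0.70, 0.27) overlapped.

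The difference of ZNF genes as a whole in whole-cell nascent RNA can also be given by replicate number, with 1 asynchronous library on each side. Same-numbered libraries did not deviate together throughout in this table (correlations of -0.269 to 0.594, above 0.1 in 11 of 15 pairs of groups). Over both numbers, 83 of 107 genes had a positive difference and the median was 0.27, beside 0.05 for all genes. Within replicate 1 the median was 0.63 with 92 genes positive, and the median ZNF level was 1.72 to 1.97 RPKM in the windows against 1.20 RPKM in asynchronous cells. Within replicate 2 it was -0.05 with 48 positive, and levels were 1.10 to 1.31 RPKM against 1.30 RPKM in asynchronous cells. The positive median was thus seen among the libraries numbered 1 and not among those numbered 2. Markers of other cell types summed to 0.688 to 73.2 RPKM in the windows and 3.3 to 7.24 RPKM in asynchronous cells over the 9 of 11 listed, and HBB (a haemoglobin chain) made up 72.4 RPKM of the highest sum, in the second T0-2 library. Their part in the ZNF values was not tested.

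In whole-cell input RNA 0 of 107 ZNF genes passed, where 0.0305% of 9825 genes did, and 7 had an unadjusted p under 0.05 in limma. Same-numbered libraries often deviated together here, with a median correlation of 0.904 over 15 pairs of groups (lowest -0.562, 10 above 0.1). ZNF598 had 1.25 to 2.37 RPKM in the windows numbered 1 and 6.77 to 9.79 RPKM in those numbered 2. Such a split widens the spread of the test, so 0 calls are not read as absence of change. With the replicate block 1 ZNF gene was lower, where 1.94% of all genes were called. ZNF202 led with 0.531, 0.607 and 0.912 RPKM at the lowest, median and highest window library, against 1.28 and 1.32 RPKM in asynchronous cells. All 10 windows lay below, with a difference of -0.79 and an adjusted p of 0.18. ZNF562 (0.64), ZNF594 (0.55) and ZNF274 (0.56) had all windows above and did not pass either, and ZNF317 (-0.49, adjusted p 0.48) had overlapping groups. The median difference was -0.00 over ZNF genes and -0.08 over all genes.

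Late against early S phase gave 1 called ZNF gene. In nuclear nascent RNA ZNF432 fell to 0.730 and 0.784 RPKM at T8-10, against 2.06 RPKM in both T0-2 libraries, a difference of -1.20 ± 0.20 (SE) with an adjusted p of 0.047 in limma, where 0.358% of 9784 genes passed (0.112% higher and 0.245% lower). ZNF432 was chosen on these same libraries and entered through its windows, with T0-2 highest, so this call is a description too. Leaving out the first T8-10 library gave 4 genes, 1 higher and 3 lower, and leaving out any 1 of the other 11 libraries gave 0. ZNF367, a zinc finger factor, had 0.620 and 0.590 RPKM at T8-10 against 1.06 and 1.59 RPKM at T0-2 (-0.86, adjusted p 0.087). ZNF740 (0.92), ZNF839 (1.09) and ZNF692 (1.25) had both late libraries above both early ones and did not pass. In nuclear input RNA 0 of 107 passed, where 0.415% of 9633 genes did, and 9 ZNF genes had an unadjusted p under 0.05 in limma. With the replicate block 16 ZNF genes were higher and 6 lower at T8-10, where 22.2% of all genes were called (15.5% higher and 6.75% lower), and ZNF367 (-0.90) then had an adjusted p of 0.0047 against 0.11 without it. After ZNF367 came ZNF432 (-0.64), ZNF718 (-0.55), ZNF37A (0.46) and ZNF330 (0.55), none of which passed without the block. Neither whole-cell fraction had a called gene of any kind in this comparison, with 4 ZNF genes in nascent and 2 in input RNA at an unadjusted p under 0.05. The genes with the lowest p-values were ZNF526 (0.67), ZNF672 (-0.74), ZNF768 (0.64), ZNF330 (0.65) and ZNF839 (0.74) in whole-cell nascent RNA. In whole-cell input RNA they were ZNF706 (0.66), ZNF367 (-0.84), ZNF780B (0.55), ZNF133 (0.54) and ZNF714 (0.67).

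**Figure D3:**
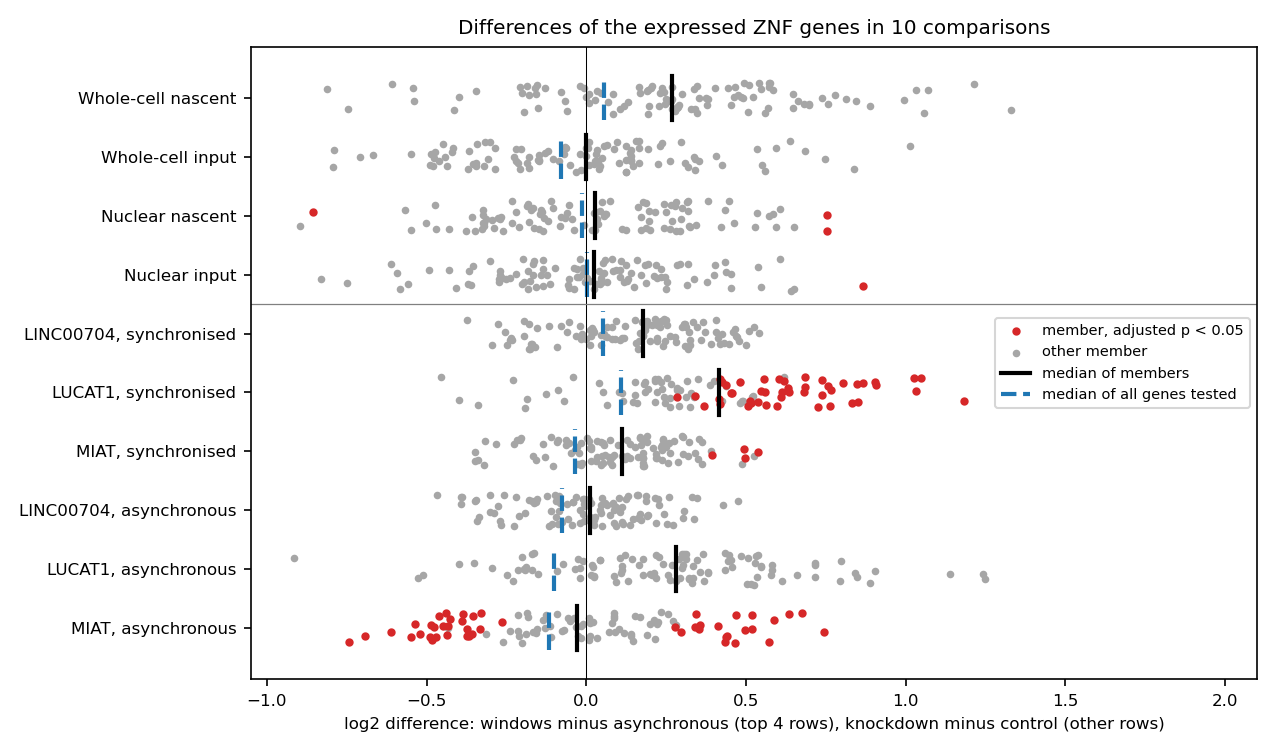
Log2 difference of each expressed ZNF gene in 10 comparisons: windows minus asynchronous in the 4 fraction tables, and knockdown minus control in the 6 knockdown tables. Red points passed an adjusted p of 0.05, black bars are medians of ZNF genes and blue dashed bars medians of all genes tested. After LUCAT1 knockdown in synchronised cells 46 points are red, all to the right of 0.

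The knockdowns lowered their targets in every table. In synchronised cells LINC00704, listed as MANCR, had 0.550 to 1.61 RPKM after its knockdown against 1.89 to 4.04 RPKM in controls, LUCAT1 had 0.133 to 0.379 against 0.440 to 0.994 RPKM, and MIAT had 0.0718 to 0.221 against 0.243 to 0.323 RPKM. In asynchronous cells the values were 0.484 to 0.793 against 1.76 to 1.94 RPKM, 0.124 to 0.311 against 0.469 to 0.495 RPKM, and 0.0561 to 0.152 against 0.345 to 0.379 RPKM. The ranges of knockdown and control libraries did not overlap for any target.

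After LUCAT1 knockdown in synchronised cells 46 of 107 expressed ZNF genes (43%) rose and 0 fell, where 27.2% of all 9870 genes were called (19% higher and 8.12% lower). The comparison is the mean over the 4 points of knockdown minus control, with 8 libraries on each side. In all, 97 ZNF genes (90.7%) had a positive difference, beside 60.3% of all genes. The median was 0.42 on the log2 scale beside 0.11 for all genes. A positive difference at all 4 points together was found in 75 of the 107 genes, among them 45 of the 46, which were called on the mean of those points. The 7 in which every knockdown library lay above every control library were ZNF121, ZNF639, ZNF106, ZNF195, ZNF202, ZNF317 and ZNF264. For neither the 75 nor the 7 was the share over all genes counted, so nothing is read from these counts. With 2 libraries on each side, 0 ZNF genes passed at S0, S2, S4 or S6 alone, where 0.0507%, 0.0203%, 0.101% and 0.0304% of all genes did.

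ZNF121 had 4.46 and 3.79 RPKM at S0, 4.1 and 3.85 at S2, 3.69 and 3.74 at S4 and 4.01 and 2.70 at S6 after LUCAT1 knockdown. Control cells had 1.73 and 1.50 RPKM at S0, 1.47 and 1.71 at S2, 1.55 and 1.87 at S4 and 1.92 and 1.82 at S6. Knockdown lay above control throughout, with a difference of 1.05 ± 0.11 (SE) and an adjusted p of 0.00035 in limma. ZNF639, also called ZASC1, had 1.88, 2.46 and 4.11 RPKM at the lowest, median and highest knockdown library, against 1.01, 1.26 and 1.37 RPKM in controls. Its groups did not overlap (1.02 ± 0.15, adjusted p 0.0015). ZNF770 had the largest difference, 1.18 ± 0.27 with an adjusted p of 0.0097, but its groups overlapped, with 3.88, 7.79 and 20.3 RPKM after knockdown and 1.39, 3.85 and 6.29 RPKM in controls. Its highest values, 19.5 and 20.3 RPKM, were in the first-listed S0 and S2 knockdown libraries.

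The other leading genes were ZNF669 (1.03), ZNF518B (0.91), ZNF84 (0.90), ZNF451 (0.87), ZNF706 (0.85) and ZNF24 (0.83), each as a log2 difference past the threshold. ZNF202, which was lower after release, rose here, with 0.568, 0.868 and 1.40 RPKM after knockdown against 0.363, 0.428 and 0.544 RPKM in controls (0.73 ± 0.13, adjusted p 0.0033). ZNF274 also rose, by 0.56 ± 0.14 (adjusted p 0.014). Of 10 expressed transcription and chromatin ZNF genes listed, 2 rose, beside 43% of all expressed ZNF genes and 19% of all genes tested. They were ZNF644 (0.61), a partner of the G9a and GLP methyltransferases, and ZNF292 (0.52). ZNF281 had 4.08, 9.73 and 16.3 RPKM after knockdown and 7.06, 13.8 and 14.5 RPKM in controls, a difference of -0.34 that did not pass.

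**Figure D4:**
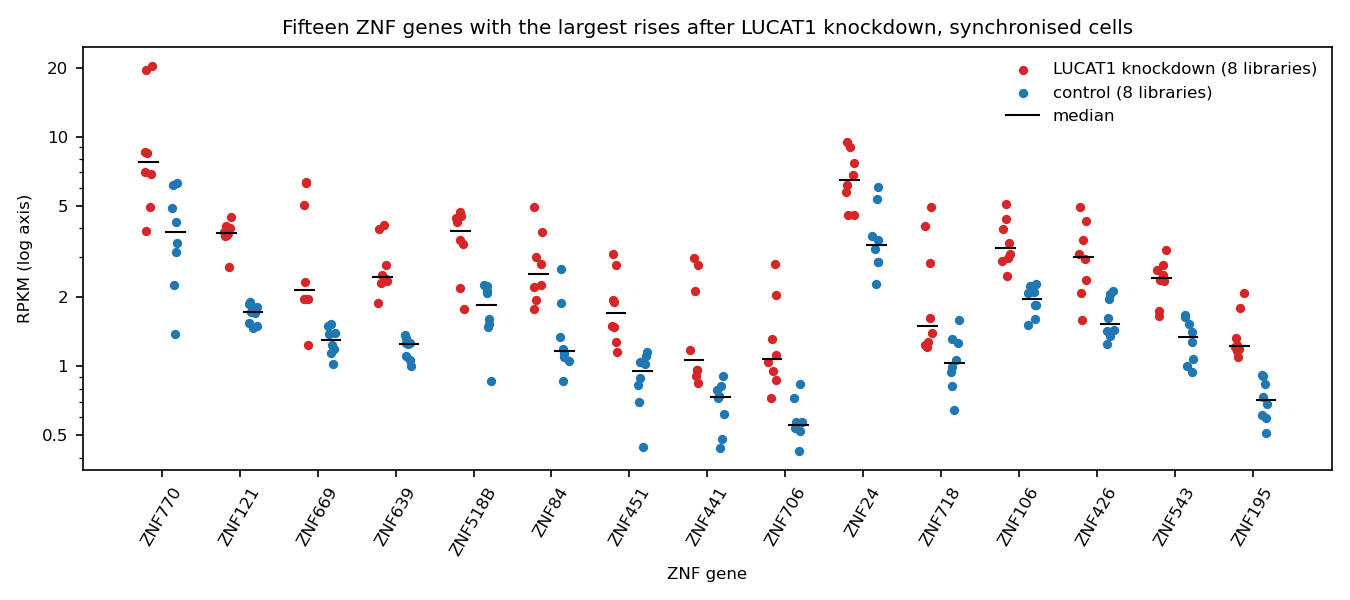
RPKM on a log axis of the 15 ZNF genes with the largest rises after LUCAT1 knockdown in synchronised cells. Red points are the 8 knockdown libraries, blue points the 8 control libraries and black bars medians. ZNF121 and ZNF639 separate the groups, whereas ZNF770 spans 3.88 to 20.3 RPKM after knockdown and 1.39 to 6.29 RPKM in controls.

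Rises were counted in related gene sets too. ZNF genes under the threshold had 55 of 134 tested genes higher and 4 lower, and the ZBTB, ZFP, ZSCAN and ZKSCAN families had 20 of 49 higher and 2 lower. Only 134 of the 297 ZNF genes under the threshold passed the filter of 0.5 RPKM in 2 libraries. Weak genes of both sets may have passed it through knockdown libraries alone, which favours rises, so these counts are descriptions. Other genes of 1 to 2 RPKM in nuclear nascent RNA, tested in the same fit, had 578 of 2964 higher (19.5%) and 203 lower. Among expressed ZNF genes 22 of 39 on chromosome 19 rose (56.4%) and 24 of 68 elsewhere (35.3%). Of the 46 that rose, 44 had a promoter entry and 19 of these (43.2%) held the ETS core, beside 43.6% over all expressed ZNF genes. Of 20 KRAB co-factors tested, 4 rose and 1 fell, near the shares over all genes (19% higher and 8.12% lower), so nothing is read from that count. Those that rose were the deacetylases HDAC2 (0.61) and HDAC1 (0.41), heterochromatin protein CBX3 (0.56) and the HUSH subunit MPHOSPH8 (0.55). CBX5 fell by 0.48.

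Scaling and single libraries moved this count. Quantile normalisation moved the median of all genes by over 0.1, to -0.01, and then 23 ZNF genes rose and 3 fell (ZNF282, ZNF70 and ZNF500, named after their values were seen). The median of ZNF genes was 0.25 and no named gene changed sign. Without the first-listed S2 knockdown library 22 genes rose, without the first-listed S0 library 27 and without the second-listed S4 library 30, and without the second S0, first S2 or first S6 control library the count was 25, 25 and 23. No ZNF gene fell in any of these. Markers of other cell types summed to 0.130 to 1.47 RPKM after knockdown and 0.0721 to 0.425 RPKM in controls, over the 6 of 11 listed. CD14, a monocyte marker, was at 0 in at least 1 library, and ALB, CD3E, HBA1 and HBB were among those not listed. Their part in the result was not tested.

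After MIAT knockdown in synchronised cells 4 ZNF genes rose and 0 fell, where 7.63% of 9528 genes were called (4.84% higher and 2.79% lower). ZNF121 had 1.95, 2.44 and 3.35 RPKM at the lowest, median and highest knockdown library, against 1.47, 1.72 and 1.92 RPKM in controls. All 8 knockdown libraries lay above all controls, with a difference of 0.50 ± 0.12 (SE) and an adjusted p of 0.026 in limma. ZNF175, which hinders HIV-1 transcription, had a difference of 0.54 ± 0.11 and an adjusted p of 0.0099, ZNF202 of 0.49 ± 0.12 and 0.030, and ZNF706, a small zinc finger protein, of 0.39 ± 0.11 and 0.046, with overlapping groups. ZNF37A had a difference of 0.49 and did not pass (adjusted p 0.053). The median was 0.11 over ZNF genes and -0.03 over all genes. Without single libraries the count was 1 to 5: it was 1 without the second S0, first S2, first S4 or first S6 control or the first-listed S0 or S2 knockdown library, and 2 without the second S6 control, first-listed S4 or second-listed S6 knockdown library.

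LINC00704 knockdown in synchronised cells called 0 of 107 ZNF genes, where 0.0212% of 9442 genes passed, and 25 ZNF genes had an unadjusted p under 0.05 in limma. ZNF121 again came first, with 1.91, 2.46 and 3.97 RPKM after knockdown against 1.47, 1.72 and 1.92 RPKM in controls. The groups overlapped by little (0.54 ± 0.15, adjusted p 0.26). ZNF462 (0.45), ZNF84 (0.48), ZNF226 (0.47) and ZNF37A (0.43) followed without passing. The median was 0.18 over ZNF genes and 0.05 over all genes. Without the second-listed S0 knockdown library 12 ZNF genes rose. The ZNF121 values of the 3 targets share their 8 control libraries and are not independent of one another.

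In asynchronous cells LUCAT1 knockdown called 0 of 107 ZNF genes with all libraries, where 0.209% of 9550 genes passed, and 15 had an unadjusted p under 0.05 in limma. The 3 knockdown libraries differed: LUCAT1 itself had 0.311, 0.128 and 0.124 RPKM, and the median ZNF gene 1.56, 2.42 and 2.17 RPKM. The 2 control libraries had 0.469 and 0.495 RPKM of LUCAT1 and ZNF medians of 1.55 and 1.63 RPKM. The first knockdown library had the most LUCAT1 left and a ZNF median close to that of the controls. Whether LUCAT1 left and ZNF median go together was not tested. ZNF79 had 1.28, 2.82 and 3.02 RPKM after knockdown against 0.868 and 0.728 RPKM in controls (1.25, adjusted p 0.14). ZNF426 had 3.52, 5.33 and 5.30 RPKM against 2.34 and 2.60 RPKM (0.85, adjusted p 0.14). Both separated the groups without passing, as did ZNF211 (0.84), ZNF432 (0.51) and ZNF440 (0.90). ZNF432 had 0.386 and 0.345 RPKM in controls, under the filter of 0.5 RPKM. It was tested through its knockdown libraries alone, which favours a rise, so its value is a description.

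ZNF281 went the other way after LUCAT1 knockdown, with 7.85, 4.23 and 3.02 RPKM against 8.43 and 9.64 RPKM in controls (-0.91, adjusted p 0.23). The median difference was 0.28 over ZNF genes and -0.10 over all genes. Without the first knockdown library 46 ZNF genes rose and 5 fell (ZNF281, ZNF776, ZNF282, ZNF70 and ZNF638, named after their values were seen), where 18.5% of 9432 genes rose and 29.9% fell, and the ZNF median was 0.41. Leaving that library out follows from its values, so this count is a description of how far 1 library carries the result. In the authors' deposited table of this comparison 38 of 107 ZNF genes were higher and 2 lower at an FDR under 0.05, beside 28% and 16.5% of all 16049 genes. Markers of other cell types summed to 0.469 to 1.31 RPKM after knockdown and 0.114 to 0.120 RPKM in controls, over the 4 of 11 listed (COL2A1, RBFOX3, CD14 and PECAM1), none of them at 0 in any library. Their part in the result was not tested.

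After MIAT knockdown in asynchronous cells ZNF genes were called in both directions, as were genes in general. Of 106 tested, 20 rose (18.9%) and 27 fell (25.5%), where 43.7% of all 9200 genes were called (12.6% higher and 31.1% lower). Nothing particular to ZNF genes is read from these counts, and the genes below are given for their values. ZNF706 rose most, with 1.55, 1.58 and 1.64 RPKM after knockdown against 0.804 and 0.891 RPKM in controls (0.74 ± 0.08, adjusted p 0.0012 in limma). ZNF281 had 14.0, 11.8 and 13.4 RPKM after knockdown against 8.13 and 9.30 RPKM in controls (0.57 ± 0.12, adjusted p 0.0092). Its knockdown libraries all lay above, opposite in sign to its value after LUCAT1 knockdown, a contrast that was not tested and that shares the 2 control libraries. ZNF770 (0.67), ZNF518B (0.63), ZNF37A (0.59), ZNF302 (0.52), ZNF175 (0.52) and ZNF451 (0.43) also rose, as did ZNF644 (0.34) and ZNF326 (0.34), a subunit of a complex that couples splicing and elongation. ZNF518A, counted among the 20, had 0.381 and 0.380 RPKM in controls and 0.516, 0.540 and 0.616 RPKM after knockdown. It met the filter of 0.5 RPKM through knockdown libraries alone, which favours a rise, so its call is a description.

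Among the genes that fell, ZNF500 had 1.03, 0.778 and 0.818 RPKM after MIAT knockdown against 1.73 and 1.52 RPKM in controls (-0.74 ± 0.12, adjusted p 0.0036 in limma). ZNF316 had 1.84, 1.51 and 1.32 RPKM against 2.76 and 2.54 RPKM (-0.69 ± 0.13, adjusted p 0.0064). Neither overlapped its controls. ZNF687, a member of the ZMYND8 co-regulator complex, fell by 0.61, ZNF646 by 0.55, ZNF598 by 0.54, ZNF526 by 0.52, ZNF530 by 0.49 and ZNF276 by 0.49. The ribosome assembly factor ZNF622, whose role is known from yeast, fell by 0.43, and ZNF445, a KRAB protein that protects imprints, fell by 0.36. On chromosome 19, 6 of 38 tested genes rose and 9 fell, beside 20 and 27 of all 106 ZNF genes tested. Over all genes 12.6% were higher and 31.1% lower.

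**Figure D5:**
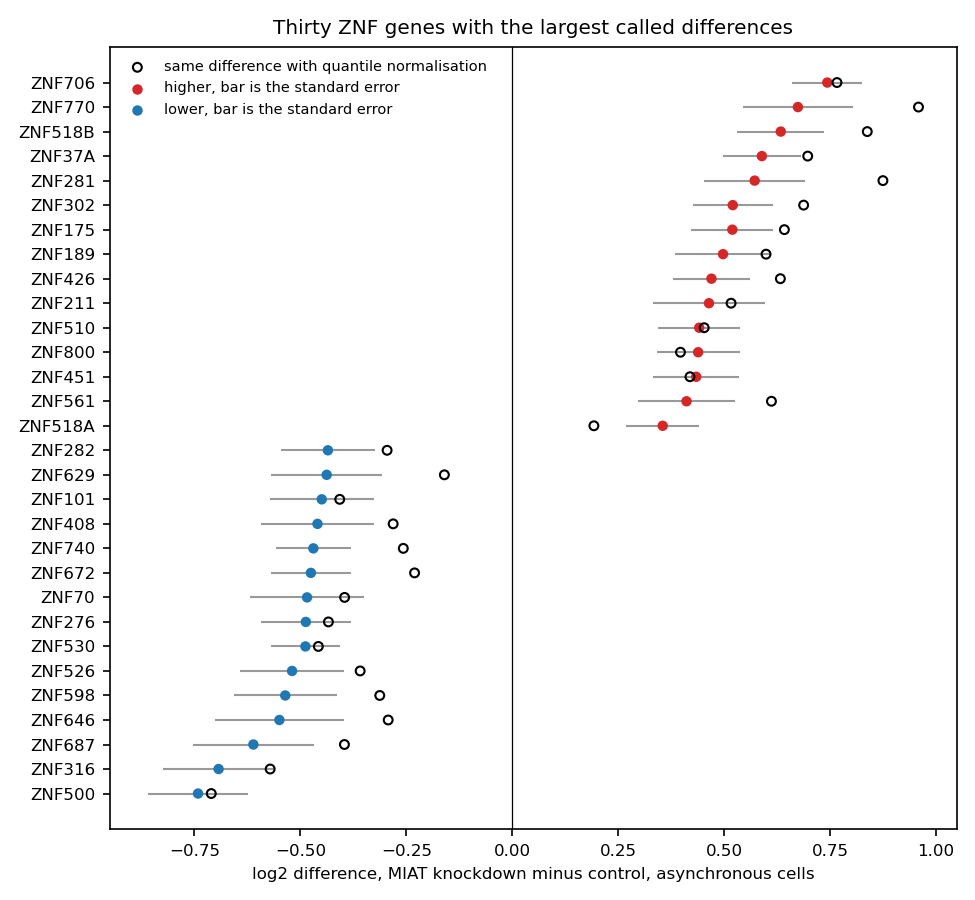
Log2 difference after MIAT knockdown in asynchronous cells for the 30 ZNF genes with the largest called differences, 15 in each direction. Filled points are the differences with standard errors, open circles the same differences after quantile normalisation. ZNF706 is highest at 0.74 and ZNF500 lowest at -0.74, and the open circles lie to the right of most filled points. ZNF518A was under 0.5 RPKM in both controls, so its point is a description.

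The start regions of the genes that rose and of those that fell can be set side by side. The ETS core was in 15 of the 26 promoters of fallen genes (57.7%) and in 3 of the 18 of risen genes (16.7%), beside 43.6% over all expressed ZNF genes. Median gene length was 14714 bp in fallen genes and 21738 bp in risen ones, and median promoter GC was 65.7% and 62.3%. The median nuclear nascent level was 1.48 RPKM in both. These counts describe called genes and carry no test. The ETS share among all genes that rose or fell was not counted, so the split is not read as particular to ZNF genes. It was not counted for the genes called after quantile normalisation either.

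Of 20 KRAB co-factors tested after MIAT knockdown in asynchronous cells 10 fell, 0 rose and 10 did not pass, where 31.1% of all genes were lower and 12.6% higher. TRIM28, the scaffold that KRAB domains bind, had 49.6 to 53.2 RPKM after knockdown against 90.6 and 92.5 RPKM in controls (-0.82 ± 0.10, adjusted p 0.0017 in limma). Among the others, UHRF1 fell by 1.05, its partner DNMT1 by 0.81, the NuRD helicases CHD3 by 0.75 and CHD4 by 0.65, heterochromatin protein CBX1 by 0.61, MORC2 by 0.43, HDAC1 by 0.41 and EHMT1 by 0.29.

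Scaling and controls moved the MIAT counts. Quantile normalisation moved the median of all genes from -0.12 to -0.03 and the split of ZNF genes to 23 higher and 11 lower, although no named gene changed sign. Without the first control library 3 genes rose and 2 fell, without the second 9 and 11, and without the second knockdown library 15 and 11. At an FDR under 0.05, 24 ZNF genes were higher and 32 lower in the authors' deposited table, beside 26.8% and 30% of all genes. LINC00704 knockdown in asynchronous cells called 0 of 105 ZNF genes tested, where 0.0557% of 8975 genes passed. There 3 had an unadjusted p under 0.05, and those with the lowest p-values were ZNF70 (-0.47), ZNF629 (-0.39), ZNF211 (0.35), ZNF460 (-0.33) and ZNF706 (0.43). The authors' deposited table held 0 ZNF genes at an FDR under 0.05, beside 5.57% higher and 1.84% lower of all 14744 genes.

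ZNF121 can be followed across the targets. Its difference was 0.54, 1.05 and 0.50 after LINC00704, LUCAT1 and MIAT knockdown in synchronised cells, and 0.22, 0.21 and 0.21 in asynchronous cells, where none passed. ZNF706 had 0.32, 0.85 and 0.39 in synchronised and 0.43, 0.89 and 0.74 in asynchronous cells, of which the synchronised LUCAT1 and both MIAT values passed. ZNF770 had 0.52, 1.18 and 0.53, then 0.23, 0.80 and 0.67, of which the synchronised LUCAT1 and the asynchronous MIAT values passed. All these values were positive, and within each cell state they share their controls. These genes were picked from the leading rises after knockdown, so nothing is read from their common sign. ZNF281, as given above, differed in sign between LUCAT1 and MIAT knockdown in asynchronous cells.

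In control cells the call of ZNF genes between S6 and S0 depended on the table the libraries were fitted in. The control libraries are the same in all synchronised tables. In the LINC00704 fit 0 of 107 passed, where 0.0741% of 9442 genes did, and 12 had an unadjusted p under 0.05 in limma. ZNF26 had 0.667 and 0.692 RPKM at S6 against 1.27 and 2.09 RPKM at S0 (-1.02, adjusted p 0.10). ZNF160 (-1.18), ZNF292 (-1.39) and ZNF84 (-0.84) were also lower at S6 in both libraries. ZNF274 was higher, with 2.12 and 2.15 RPKM at S6 against 1.00 and 1.02 RPKM at S0 (0.92, adjusted p 0.22). In the MIAT table, fitted with the spread of its own knockdown libraries, ZNF160 (adjusted p 0.027) and ZNF292 (0.030) were lower and ZNF274 (0.036) higher at S6, where 0.997% of genes were called (0.525% higher and 0.472% lower). In the LUCAT1 table ZNF292 alone passed (adjusted p 0.040), where 0.871% were called (0.527% higher and 0.344% lower). These fits were added to the LINC00704 one, and the differences of a gene were the same size in all 3 tables.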

How the data were processed

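Values are RPKM tables that the authors deposited, 1 per RNA fraction and 1 per knockdown and cell state. The submitters' processing notes name STAR 2.5.3, featureCounts 1.6.1, edgeR, Bowtie2 2.3.4.3 and HOMER 4.10.3 and build hg38, with no role or order. Per the file headers the tables also hold gene lengths, which matched RefSeq gene spans within 10% for 75.4% of genes, so RPKM is per span and not per exon. The asynchronous tables hold the authors' deposited log2 fold changes (logFC), p-values and FDR. Knockdown libraries are strand-specific per the labels; for fraction tables strand use was not stated.

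Tests took the genes that reached 0.5 RPKM in 2 or more of a table's libraries and were made with limma 3.58.1 (R 4.3.3) on log2(RPKM + 0.25), with a mean trend in the variance and Benjamini-Hochberg adjustment over all genes tested. Fold changes on that scale understate changes of low genes. Weak ZNF genes may have met the filter through knockdown libraries alone, which favours rises. Groups of a table shared 1 estimate of spread. The call threshold was an adjusted p of 0.05. Libraries with the same label are called replicates; the labels name no separate cultures, and p-values here reflect library-to-library spread that may be technical. Genes were named if called, at most 15 per direction by size of difference; where under 5 were called, the 5 with the lowest p are given as not passing. Some of these are shown in the figures only. The 10 most abundant genes and the 3 on either side of the threshold were named as well, and listed members and co-factors are given as counts with examples. ZNF202, ZNF121, ZNF706 and ZNF770 across targets, ZNF79 by library, and the printed promoters were chosen after their values were seen, as were the motifs. The ZNF genes and all gene lists were chosen with earlier results of these data known. In simulated data for nuclear nascent RNA (9370 genes), 55.3% of genes changed by 1 and 97.8% of genes changed by 2 on the log2 scale were recovered in the windows comparison; in whole-cell nascent RNA (9590 genes) 17.2% and 75.6%. Alternatives were a pseudocount of 1, no filter, quantile normalisation, a replicate block, leaving out each library, and choosing members by the asynchronous mean. Same-numbered libraries of nuclear input RNA deviated together (correlations 0.627 to 0.861 in 15 pairs), so blocked values stand beside its results. The 5 chromatin samples of 96 were not used here. Python 3.11.15, pandas 2.3.3 and matplotlib 3.10.9 were used.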

Additional observations from a re-analysis of the deposited data

How the results depend on the processing

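Counts of ZNF genes passing the threshold depended on the setting as follows. With the replicate block they were 6 in whole-cell nascent (2.75% of all genes called), 1 in whole-cell input (1.94%), 5 in nuclear nascent (5.56%) and 30 in nuclear input RNA (34.4%) for windows minus asynchronous, 22 in nuclear input RNA for T8-10 minus T0-2 (22.2%), 1 after LUCAT1 knockdown in asynchronous cells (5.05%) and 4 for control S6 minus S0 (3.1%). Of the fraction tables, nuclear input RNA alone had every pair of groups correlated by number above 0.1. Whole-cell input RNA had 10 of 15 pairs above 0.1, with a median correlation of 0.904. The asynchronous knockdown tables hold 1 pair each, with correlations of 0.142 to 0.331. For MIAT in asynchronous cells the block gave 14 higher and 21 lower (36.6% of all genes called). Choosing members by the asynchronous mean gave 2 called genes for windows in nuclear nascent RNA. No paired analysis was possible because the column numbers of synchronised knockdowns differ from the titles' replicate numbers, for those 3 knockdown comparisons. With no filter on low values the count was 0 in nuclear nascent RNA for both comparisons and 3 in nuclear input RNA for windows. With quantile normalisation it was 1 and 2 for windows in nuclear nascent and nuclear input RNA, 2 for T8-10 minus T0-2 in nuclear nascent RNA, and 26 and 2 after LUCAT1 and MIAT knockdown in synchronised cells. The cause was not tested.

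Leaving out 1 library at a time gave ranges of 0 to 4 for windows and for T8-10 minus T0-2 in nuclear nascent RNA, 0 to 1 for windows in nuclear input RNA and for control S6 minus S0, 0 to 12, 22 to 61 and 1 to 5 after LINC00704, LUCAT1 and MIAT knockdown in synchronised cells, and 0 to 51 and 5 to 50 after LUCAT1 and MIAT knockdown in asynchronous cells. The other comparisons stayed at 0. No named gene changed sign while called. Quantile normalisation turned the sign of the ZNF median for windows in whole-cell input RNA (to 0.05, and 0.02 with a pseudocount of 1), for T8-10 minus T0-2 in nuclear nascent (-0.04) and nuclear input RNA (-0.01), and after MIAT knockdown in asynchronous cells (to 0.03). Of all settings of named genes, 1370 kept their side of the threshold, 167 lost it and 38 gained it. Values of weak genes rest on as few as 9 reads.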
